A study of Mus musculus with 26 samples.

Results

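Tbx2, Tbx3, Tbx4, Tbx5, Tbx15 and Tbx18 are 6 T-box genes with roles in the limbs and the body wall. They were chosen by name from the 53801 genes listed in the RNA-Seq files of mouse embryonic fibroblasts (MEFs), and each was matched by its Ensembl identifier to the GENCODE M21 annotation of GRCm38. T-box genes encode transcription factors that share a DNA-binding domain. In the embryo Tbx5 marks the forelimb and Tbx4 the hindlimb, Tbx2 and Tbx3 encode repressors that act at the limb margins, Tbx15 shapes the shoulder girdle and dorsal skin, and Tbx18 acts in somites, epicardium and the mesenchyme of the ureter. Outside the tissues that use them, such genes are often held silent by Polycomb repressive complex 2 (PRC2), whose catalytic subunit EZH2 places the trimethyl mark H3K27me3.

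The study compared 3 kinds of MEFs. WT MEFs came from a female parental line. ATRXΔRBR MEFs are 1 clone, made with CRISPR/Cas9 and a pair of guides, in which endogenous ATRX, a chromatin remodeler, lacks its RNA-binding region. With 1 clone, effects of the clone and of the deletion cannot be told apart. ATRX KD cells carry an shRNA against Atrx and were selected with puromycin. RNA-Seq was available from 2 libraries of each, and CUT&RUN, in which antibody-bound chromatin fragments are released and sequenced, as 2 peak lists per genotype for EZH2 and H3K27me3 and as 2 lists each of WT and ATRXΔRBR for ATRX. Peaks had been called in each library on its own. The study's methods call the replicates biological, and no source used here says whether they were separate cultures. The p-values measure the spread between these libraries.

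Several properties of the libraries bear on all values below. The RNA-Seq libraries held between 9051693 and 21723647 estimated counts. Atrx had 619 and 429 CPM (counts scaled to a common library total after TMM normalization) in WT. It had 420 and 556 CPM in the libraries labelled ATRX KD. Its RNA was thus not detectably lower there (log2 fold change -0.15, SE 0.21, adjusted p = 0.605 by edgeR). The transcript length RSEM gave Atrx was 2839 and 2405 bases there, against 4973.5 and 6292 bases in WT. The paper describes ATRX protein, which RNA-Seq does not measure, as depleted in its knockdown lines by western blot. The deposited raw files name a single sequencing run for WT and ATRXΔRBR and none for ATRX KD. The run of ATRX KD is thus not known from them, and genotype and run cannot be told apart. Of 14 fibroblast markers 10 reached 1 TPM (a level per transcript length, scaled to a common total per library) on average, while Thy1 and Fap were listed at 0 in every library. The H3K27me3 lists labelled ATRX KD covered 6.37 and 5.60 Mb, against 103 and 118 Mb in WT and 147 and 127 Mb in ATRXΔRBR. The EZH2 list of ATRXΔRBR replicate 2 stood close to WT. Of the bases in its 212 peaks of 5 kb or more, 98.9% and 99.7% lay in peaks of the WT replicates and 63.6% in peaks of ATRXΔRBR replicate 1. For H3K27me3 peaks of that width in ATRXΔRBR replicate 2, 92.9% of the bases lay in peaks of ATRXΔRBR replicate 1 and 48.6% and 52.1% in peaks of the WT replicates. Each EZH2 result at ATRXΔRBR is therefore given by list.

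Tbx15 was the most abundant of the 6 genes, followed by Tbx18 and Tbx3, while Tbx2, Tbx4 and Tbx5 were at or near 0. TPM was used to compare levels between genes. Tbx15 had 114 and 117 TPM in the WT replicates, 81.8 and 77.4 TPM in ATRXΔRBR, and 125 and 120 TPM in the libraries labelled ATRX KD. Tbx18 had 19.5 and 20.5 TPM in WT, 25.5 and 21.6 TPM in ATRXΔRBR, and 17.3 and 18.8 TPM in ATRX KD. The lowest Tbx15 library thus lay above the highest Tbx18 library. Tbx3 had 2.77 and 2.48 TPM in WT, 6.96 and 4.18 TPM in ATRXΔRBR, and 2.15 and 4.98 TPM in ATRX KD, always below Tbx18. For Tbx2 the WT libraries held 3 and 1 estimated counts, those of ATRXΔRBR 0 and 1, and those of ATRX KD 2 and 0. Tbx4 and Tbx5, the limb-type genes, had 0 counts in all 6 libraries. A count of 0 allows up to 0.138 to 0.331 CPM at the depth of these libraries, counting error only. Within each library Tbx2 therefore did not differ detectably from Tbx4 and Tbx5. Over all 6 libraries Tbx2 had 7 counts, against 0 for Tbx4 and for Tbx5, and this pooled difference was not tested.

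**Figure D1:**
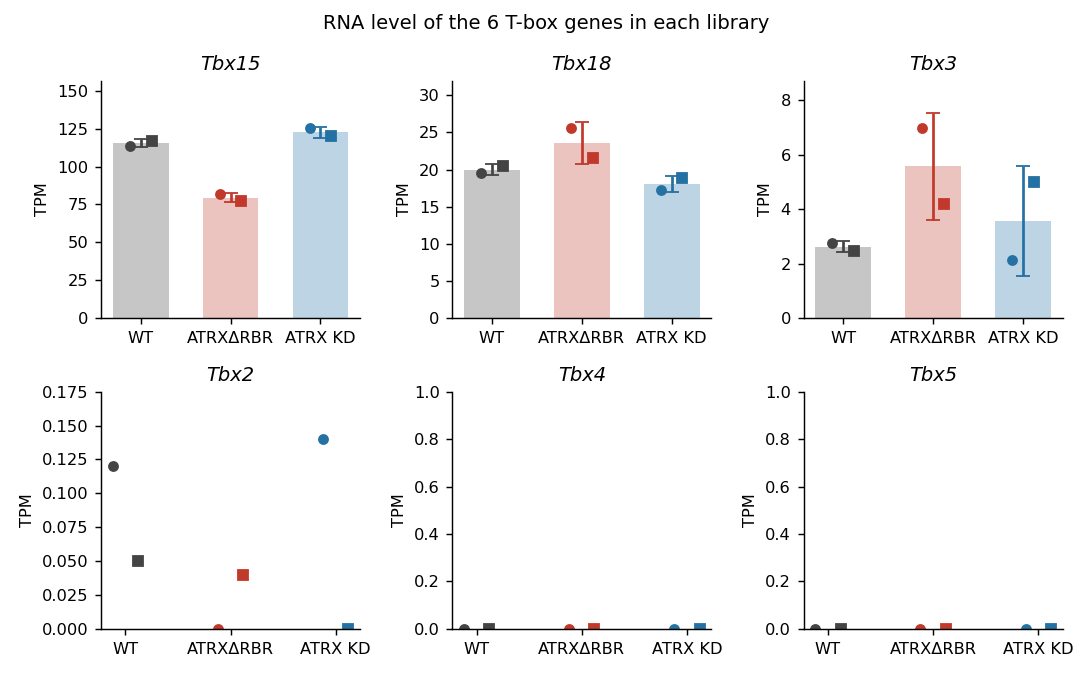
RNA level in TPM of each of the 6 genes in the 3 genotypes, with 1 circle for replicate 1 and 1 square for replicate 2, and for Tbx15, Tbx18 and Tbx3 the mean as a bar with its SD. Tbx15 sits at 77.4 and 81.8 TPM in ATRXΔRBR and between 114 and 125 TPM elsewhere, and Tbx4 and Tbx5 sit at 0 throughout.

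In the comparison of ATRXΔRBR with WT, which addresses the effect of losing the RNA-binding region, none of the members was called at an adjusted p under 0.05 by edgeR's quasi-likelihood test. The fit covered 16334 genes, of which 6.85% were called, and 3 of the 6 members, since Tbx2, Tbx4 and Tbx5 failed the minimum of more than 10 counts in total. Of the 3 tested members, 2 had an unadjusted p under 0.05 and 1 was called by DESeq2. In each of the 3, the ATRXΔRBR libraries did not overlap the WT libraries in CPM, as held for 49.5% of all genes tested.

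Tbx3 (ENSMUSG00000018604, plus strand, chr5:119670669-119684724) had 7.11 and 4.96 CPM in WT and 12.6 and 10.4 CPM in ATRXΔRBR. Both ATRXΔRBR libraries lay above both WT libraries, with a fitted log2 fold change of 0.91 (SE 0.27, edgeR adjusted p = 0.0975). Without WT replicate 1 the log2 fold change was 1.20 and was called (edgeR adjusted p = 0.0208). It was 0.67 without WT replicate 2 and 0.78 without ATRXΔRBR replicate 1, and called in neither (edgeR adjusted p = 0.272 and 0.271). Over the settings tried, leaving aside a block on crossed replicate numbers that was chosen after seeing the data, the adjusted p of Tbx3 ranged from 0.0208 to 0.272. RSEM gave Tbx3 a transcript length of 2744 to 4856 bases, depending on the library, so its TPM also moves with the transcripts assigned. Tbx3os1, the antisense gene over its start, had 0 to 2.86 estimated counts.

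Tbx15 (ENSMUSG00000027868, plus strand, chr3:99240381-99354259) had 215 and 201 CPM in WT and 137 and 141 CPM in ATRXΔRBR. The 2 ATRXΔRBR libraries were lower than both WT libraries and close to each other, with a log2 fold change of -0.60 (SE 0.16, edgeR adjusted p = 0.0730). DESeq2 called it with a log2 fold change of -0.59 (adjusted p = 0.0493), and its adjusted p over the same settings ranged from 0.0162 to 0.344. Leaving out any 1 library gave no call of Tbx15. The deposited length of Tbx15, 3566 bases in every library, is the exon length of transcript Tbx15-201, which starts 13.4 kb inside the annotated gene. Gm43120, antisense within Tbx15, had 2 to 21 estimated counts.

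Tbx18 (ENSMUSG00000032419, minus strand, chr9:87702800-87731260) had 48.7 and 46.3 CPM in WT and 56.4 and 51.7 CPM in ATRXΔRBR. The groups did not overlap, but the log2 fold change of 0.17 was as small as its SE of 0.17 (edgeR adjusted p = 0.647). D030062O11Rik, which overlaps the Tbx18 start, had 2.54 and 2.89 CPM in WT and 3.18 and 2.37 CPM in ATRXΔRBR (log2 fold change 0.01, SE 0.35, edgeR adjusted p = 0.995).

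None of the members was called between WT and the libraries labelled ATRX KD either, in a fit where 33.0% of 16785 genes were called. Of the 3 tested members 1 had an unadjusted p under 0.05, DESeq2 called 0, and 2 had groups that did not overlap, against 69.8% of all genes tested. Tbx18 had 36.3 and 40.1 CPM in ATRX KD, below both WT libraries, with a log2 fold change of -0.36 (SE 0.13, edgeR adjusted p = 0.0763). The log2 fold change of Tbx18 was -0.33 without WT replicate 1 and -0.40 without WT replicate 2. In these fits the lone WT library was assumed to vary like the ATRX KD libraries. Tbx15 had 200.01 and 194 CPM in ATRX KD, just below WT, with a log2 fold change of -0.13 (SE 0.11, edgeR adjusted p = 0.399). The log2 fold change of Tbx15 was -0.09 without WT replicate 1 and -0.19 without WT replicate 2. Tbx3 had 4.69 and 6.17 CPM in ATRX KD, which overlapped WT, and a log2 fold change of -0.18 (SE 0.28, edgeR adjusted p = 0.653). On the scale of log2 mean TPM plus 1 the changes of Tbx3 and Tbx15 were 0.33 and 0.09, opposite in sign, where the median of all tested genes was itself 0.16.

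Between the libraries labelled ATRX KD and ATRXΔRBR, all 3 tested members were called, in a fit where 34.7% of 16520 genes were called. The groups of all 3 did not overlap, as for 68.9% of all genes tested. Tbx3 was lower in ATRX KD by a log2 fold change of -1.09 (SE 0.23, edgeR adjusted p = 0.00630). Tbx18 was also lower, by -0.55 (SE 0.14, edgeR adjusted p = 0.0145), and Tbx15 was higher, by 0.45 (SE 0.12, edgeR adjusted p = 0.0188). Tbx15 was no longer called without ATRX KD replicate 1 or 2 (edgeR adjusted p = 0.288 and 0.226), nor was Tbx18 (edgeR adjusted p = 0.259 and 0.136), whereas Tbx3 was called in each fit that left out a library. With a size limit of 1 on the log2 fold change, Tbx3 alone of the 3 was called. The sequencing run cannot be told apart from the genotype in this comparison.

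**Figure D2:**
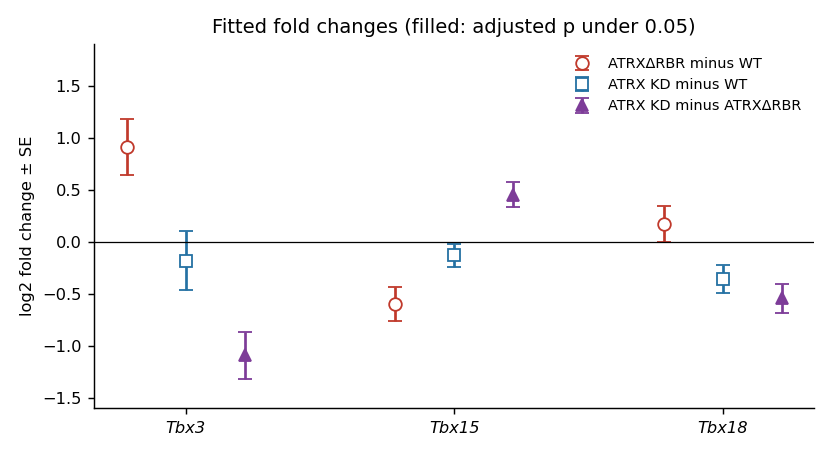
Log2 fold change with its SE for Tbx3, Tbx15 and Tbx18 in the 3 comparisons of edgeR, with filled symbols for an adjusted p under 0.05. The symbols are open in both comparisons with WT and filled between ATRX KD and ATRXΔRBR, where Tbx15 lies above 0 at 0.45 and Tbx3 and Tbx18 lie below it at -1.09 and -0.55.

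The chromatin lists set Tbx2, Tbx3, Tbx4 and Tbx5, which carried H3K27me3 within 2 kb of the TSS in both WT lists, apart from Tbx15 and Tbx18, which had no H3K27me3 peak in any of the 6 lists within 20 kb of the gene. The TSS was taken as the outermost annotated start. An H3K27me3 peak in both WT lists was found at 11.0% of all 55536 annotated TSS, and at 15.5% and 16.4% of protein-coding TSS in the single WT lists. EZH2 peaks lay at the TSS of Tbx2, Tbx3, Tbx5 and Tbx18 in both WT lists, against 22.9% of all TSS. Of protein-coding TSS, 50.4% and 46.6% had an EZH2 peak in the single WT lists. The 4 genes with H3K27me3 had at most 2.77 TPM in WT. Among protein-coding genes with both marks at the TSS in both WT lists, as for Tbx2, Tbx3 and Tbx5, 72.2% were under 1 TPM in WT, and among the 8018 with EZH2 but no H3K27me3, as for Tbx18, 5.48% were. Among genes with H3K27me3 and no EZH2, as for Tbx4, 94.1% were under 1 TPM. Genes with neither mark at the TSS were also mostly low, with 78.9% under 1 TPM. Lack of H3K27me3 thus did not by itself go with a high level. Tbx15 was in this state by its outermost start only. Both WT lists had an EZH2 peak, without H3K27me3, over the start of Tbx15-201 inside the gene.

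In ATRXΔRBR, H3K27me3 stood at the TSS of Tbx2, Tbx4 and Tbx5 in both lists, against 11.1% of all TSS. Of protein-coding TSS, 16.1% and 14.6% had an H3K27me3 peak in the single ATRXΔRBR lists. Of the 4 members marked in both WT lists, Tbx3 alone had no H3K27me3 at the TSS in either ATRXΔRBR list, a change found at 28.0% of the 6090 TSS marked in both WT lists. The bases of the gene and its 2 kb upstream region that lay in H3K27me3 peaks were fewer in both ATRXΔRBR lists than in either WT list for Tbx2, Tbx3 and Tbx5, 3 of 4 members, where 53.0% of 7357 genes were. They were more for Tbx4, as for 21.6% of genes. With 2 lists against 2, an exact permutation test cannot give a two-sided p under 0.33, so these are descriptions.

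Tbx5 (ENSMUSG00000018263, plus strand, chr5:119832668-119885219) carried the widest EZH2 and H3K27me3 peaks of the 6 genes in both WT lists. In both ATRXΔRBR lists the widest H3K27me3 peak was at Tbx4, with 16287 and 14950 bp. In WT replicate 1 an H3K27me3 peak of 31456 bp reached from -15.3 kb to 16.2 kb relative to the TSS, wider than 99.4% of the peaks of its list. In WT replicate 2 a peak of 20828 bp reached from -4.48 kb to 16.35 kb. Both ATRXΔRBR lists held fragments in place of this domain, the widest of which had 6843 bp in replicate 1 and 3697 bp in replicate 2. H3K27me3 covered 28.5 and 29.5 kb of the gene and its upstream region in WT and 7.98 and 9.03 kb in ATRXΔRBR, so the groups were far apart. The lists labelled ATRX KD had no H3K27me3 peak there.

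EZH2 at Tbx5 differed between the ATRXΔRBR lists, while neither ATRX KD list had an EZH2 peak within 20 kb of the gene. A single EZH2 peak of 16278 bp in WT replicate 1 and of 15420 bp in WT replicate 2 lay over the TSS. ATRXΔRBR replicate 2 had a peak of 15481 bp at the same place, while ATRXΔRBR replicate 1 had 3 peaks inside the gene of 163 to 736 bp and none at the TSS. The wide peaks ended at positions 119845388, 119845394 and 119845390 in WT replicates 1 and 2 and ATRXΔRBR replicate 2. ATRXΔRBR replicate 2 is the EZH2 list that stood close to WT, and without it Tbx5 had lost its TSS peak in ATRXΔRBR. Tbx5 RNA was at 0 counts with and without these domains.

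Tbx3 had an H3K27me3 peak over its TSS of 1597 bp in WT replicate 1 and 1548 bp in WT replicate 2. Neither ATRXΔRBR list nor ATRX KD list had one. A wider domain upstream reached from -14.4 to -4.96 kb of the TSS in WT replicate 1 and from -15.3 to -6.13 kb in WT replicate 2. Within it the ATRXΔRBR lists had a peak of 3938 and 3558 bp. The peaks of the ATRX KD lists there, of 926 and 370 bp, did not overlap each other. They began at -12.4 and -9.45 kb of the TSS. EZH2 remained over the TSS in all 6 lists, with widths of 2934 and 2589 bp in WT, 2530 and 2405 bp in ATRXΔRBR, and 561 and 546 bp in ATRX KD. ATRX lay there in WT replicate 1 (298 bp) and ATRXΔRBR replicate 1 (738 bp) and in neither replicate 2. Tbx3 was thus the member with H3K27me3 at the TSS in WT that also had RNA counts in every library, and its RNA was higher in ATRXΔRBR without passing the test.

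Tbx2 (ENSMUSG00000000093, plus strand, chr11:85832551-85841948) kept both marks at its TSS in all lists. Its H3K27me3 peak had 11600 and 13494 bp in WT, 8924 and 8264 bp in ATRXΔRBR, and 1201 and 2277 bp in ATRX KD. The 2 ATRXΔRBR lists ended 4.36 and 4.34 kb inside the gene, where the WT peaks ran to 7.74 and 9.01 kb. EZH2 peaks at the TSS had 5298 and 3837 bp in WT and 4707 and 5031 bp in ATRXΔRBR, which overlapped, and 1058 and 1085 bp in ATRX KD. ATRX had no peak at Tbx2 within 20 kb in any list.

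Tbx4 (ENSMUSG00000000094, plus strand, chr11:85886422-85916097) lies downstream of Tbx2 on the same strand and differed from the other marked genes. H3K27me3 covered 15.5 and 14.3 kb of the gene and its upstream region in WT and more in ATRXΔRBR, 20.2 and 18.2 kb. Both ATRXΔRBR lists also had peaks between -8.80 and -0.696 kb of the TSS, where WT had at most a peak of 200 bp, and a further peak 46.3 to 52.1 kb downstream of the TSS in replicate 1 and 46.6 to 51.8 kb in replicate 2. The lists labelled ATRX KD held a single peak of 2447 and 2412 bp, 5.29 and 5.35 kb inside the gene. No EZH2 peak lay at the Tbx4 TSS in any list, and WT replicate 1 alone had an EZH2 peak inside the gene (472 bp).

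**Figure D3:**
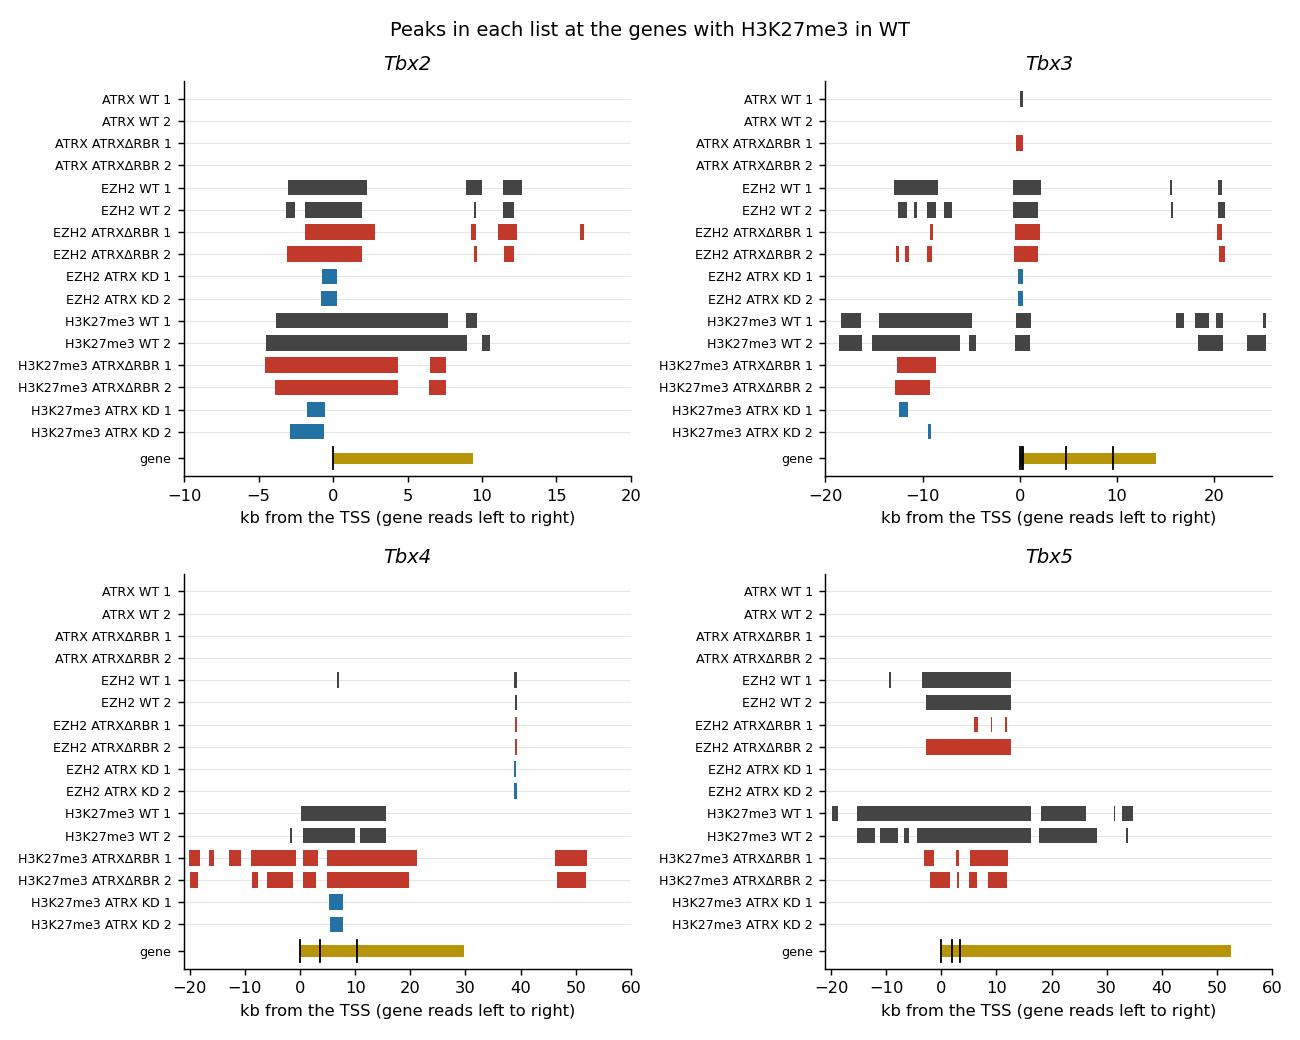
Peaks in each of the 16 lists at Tbx2, Tbx3, Tbx4 and Tbx5, by distance in kb from the outermost TSS, with the gene as a bar and the annotated transcript starts as ticks. At Tbx5 the H3K27me3 domain of 31456 bp in WT replicate 1 gives way to fragments of at most 6843 bp in ATRXΔRBR, while the EZH2 domain is present in ATRXΔRBR replicate 2 and absent from replicate 1.

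A narrow EZH2 peak beyond the end of Tbx4, within 38.8 to 39.4 kb of its TSS, was found in all 6 EZH2 lists, with widths from 211 to 514 bp and no H3K27me3 peak over it. It lies in no annotated gene, with the nearest transcript start 24813 bases away. Its sequence in ATRXΔRBR replicate 2 is shown because it is the only EZH2 peak near Tbx4 shared by every list, at chr11:85925472-85925682 of GRCm38, plus strand, with the 170 bases inside the peaks of all 6 lists in capitals.
Tbx4 downstream EZH2 peak: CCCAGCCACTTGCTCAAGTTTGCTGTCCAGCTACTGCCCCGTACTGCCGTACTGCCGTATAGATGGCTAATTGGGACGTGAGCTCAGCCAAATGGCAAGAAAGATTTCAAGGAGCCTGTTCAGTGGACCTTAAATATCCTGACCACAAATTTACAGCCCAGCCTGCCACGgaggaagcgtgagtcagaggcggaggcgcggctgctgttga
This stretch had 54.5% G and C and 9 CpG. At the midpoints of the 11404 peaks of the list, windows of the same length had a median of 61.1% and 14 CpG.

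**Figure D4:**
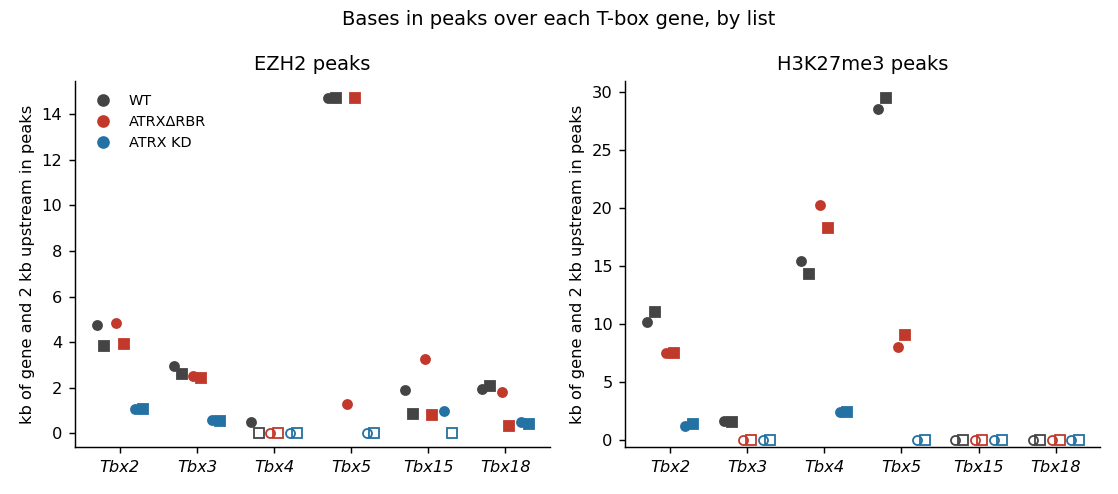
Length in kb of each gene and its 2 kb upstream region inside EZH2 peaks (left) and H3K27me3 peaks (right), with a circle for replicate 1, a square for replicate 2 and an open symbol at 0. H3K27me3 at Tbx5 drops from 28.5 and 29.5 kb in WT to 7.98 and 9.03 kb in ATRXΔRBR, while Tbx4 has 20.2 and 18.2 kb there against 15.5 and 14.3 kb in WT.

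Over all members, EZH2 peaks lay at the TSS of Tbx2, Tbx3 and Tbx18 in both ATRXΔRBR lists, against 16.3% of all TSS. Of protein-coding TSS, 49.0% and 34.9% had an EZH2 peak in the single ATRXΔRBR lists. No member with EZH2 at the TSS in both WT lists lacked it in both ATRXΔRBR lists, a loss found at 3.33% of 12739 TSS. EZH2-covered bases were fewer in both ATRXΔRBR lists than in either WT list for Tbx3 and Tbx18, 2 of 5 members, against 24.2% of 14449 genes. In the lists labelled ATRX KD, EZH2 lay at the TSS of Tbx2, Tbx3 and Tbx18 (8.22% of all TSS in both lists). The single ATRX KD lists had an EZH2 peak at 19.4% and 24.7% of protein-coding TSS. Tbx5 had lost EZH2 at its TSS, as had 42.2% of TSS. Covered bases were fewer in ATRX KD for Tbx2, Tbx3, Tbx5 and Tbx18, where 90.3% of all genes were. H3K27me3 in ATRX KD remained at the TSS of Tbx2 alone (2.46% of all TSS in both lists). The single ATRX KD lists had an H3K27me3 peak at 6.02% and 5.57% of protein-coding TSS. H3K27me3 was lost at the TSS of Tbx3, Tbx4 and Tbx5, against 66.9% of TSS. All 4 marked members had fewer covered bases, against 97.1% of genes. These shares show how widely the lists labelled ATRX KD differed from WT, and whether the members differed from other genes was not tested.

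ATRX peaks were found at Tbx3, Tbx15 and Tbx18 and not at Tbx2, Tbx4 or Tbx5. No member had an ATRX peak within 2 kb of its outermost TSS in both WT lists or in both ATRXΔRBR lists, against 2.24% and 1.88% of all TSS. Tbx3 and Tbx18 had one in replicate 1 of both genotypes, and the number of members with one was 2 in each replicate 1 and 0 in each replicate 2. The 3 genes with an ATRX peak were the 3 that passed the count filter. Whether ATRX peaks go with expression over all genes was not tested.

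At Tbx15 the ATRX peaks lay inside the gene, 4 in WT replicate 1 and 2 each in WT replicate 2 and ATRXΔRBR replicate 2. The site they shared was next to the start of Tbx15-201. Peaks of 449 bp in WT replicate 1, 657 bp in WT replicate 2 and 261 bp in ATRXΔRBR replicate 2 overlapped there, with fold enrichments over background of 4.19, 5.17 and 5.47 and −log10 q-values of 1.98, 3.40 and 3.64. ATRXΔRBR replicate 1 had no ATRX peak at Tbx15. EZH2 peaks of 812 to 955 bp covered that start in the 4 lists from WT and ATRXΔRBR, and ATRXΔRBR replicate 1 had a further EZH2 peak of 931 bp at the outermost start. In ATRX KD the only EZH2 peak, 961 bp in replicate 1, lay 82.5 kb inside the gene. The ATRX peak of ATRXΔRBR replicate 2 is shown, since it lies inside those of both WT lists, at chr3:99253021-99253281 of GRCm38, plus strand. It is intronic to Tbx15-203 and ends 479 bases before the start of Tbx15-201. Capitals mark the 157 bases that also lie in the EZH2 peaks of the 4 WT and ATRXΔRBR lists.
Tbx15 ATRX peak: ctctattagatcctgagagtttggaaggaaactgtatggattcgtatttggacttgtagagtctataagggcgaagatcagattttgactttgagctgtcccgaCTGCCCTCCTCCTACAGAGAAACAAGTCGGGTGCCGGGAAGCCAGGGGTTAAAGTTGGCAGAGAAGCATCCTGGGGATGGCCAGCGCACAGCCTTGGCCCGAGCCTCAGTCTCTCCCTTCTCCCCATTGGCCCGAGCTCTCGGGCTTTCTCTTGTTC
It had 53.3% G and C and 9 CpG, against medians of 48.3% and 3 CpG in windows of that length at the 4776 peaks of its list on assembled chromosomes.

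At Tbx18 EZH2 peaks reached from -0.29 to 1.65 kb of the TSS in WT replicate 1 (1941 bp), with 2072 bp in WT replicate 2 and 1792 bp in ATRXΔRBR replicate 1. ATRXΔRBR replicate 2 had a peak of 331 bp that began 1.07 kb after the TSS, and ATRX KD had 475 and 384 bp over the TSS. ATRX lay over the TSS in WT replicate 1 (544 bp) and 1.12 kb after it in ATRXΔRBR replicate 1 (362 bp). The 250 bases before the Tbx18 start, from RefSeq's promoters of GRCm38.p6, are shown because 5 of the 6 EZH2 lists had a peak there without H3K27me3. They lie at chr9:87731261-87731510, minus strand, over an exon of D030062O11Rik, and capitals mark the 230 bases inside the peaks of the 5 lists, all but ATRXΔRBR replicate 2.
Tbx18 promoter: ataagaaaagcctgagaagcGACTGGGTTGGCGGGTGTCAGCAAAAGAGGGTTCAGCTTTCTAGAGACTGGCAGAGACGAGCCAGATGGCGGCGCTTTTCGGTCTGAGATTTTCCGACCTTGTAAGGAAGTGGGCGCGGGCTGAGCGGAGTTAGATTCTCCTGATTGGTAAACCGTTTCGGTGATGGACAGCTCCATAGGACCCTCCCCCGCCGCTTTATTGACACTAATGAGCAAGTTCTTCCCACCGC
They had 54.0% G and C and 15 CpG, against medians of 52.4% and 6 CpG over 32851 promoters of that table, which held 2 of the 6 members, Tbx4 and Tbx18. The table did not list Tbx2, Tbx3, Tbx5 or Tbx15.

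T-box proteins bind sites related to AGGTGTGA. Neither these letters nor the shorter GGTGTG within them occurred on either strand of the 3 printed sequences. AGGTGTGA was present in 1.12% of the 32851 promoter stretches, 1.11% of the ATRX peak windows and 0.491% of the EZH2 peak windows, and GGTGTG in 16.3%, 17.0% and 12.4%.

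**Figure D5:**
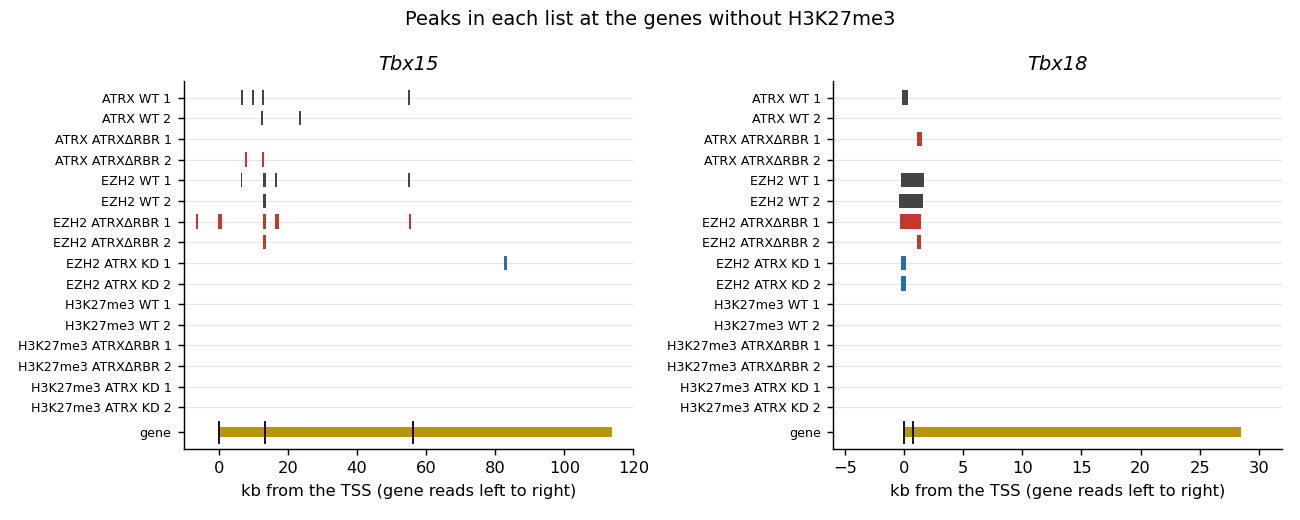
Peaks in each of the 16 lists at Tbx15 and Tbx18, by distance in kb from the outermost TSS, drawn as for the other genes. Narrow ATRX and EZH2 peaks cluster near the second start of Tbx15, 13.4 kb inside the gene, the EZH2 peaks at Tbx18 lie over its TSS, and the H3K27me3 rows are empty.

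Of 11 other T-box family genes, 4 passed the count filter in each comparison. In ATRXΔRBR 1 was called lower, Tbx20, with 23 and 13 counts in WT and 0 in both ATRXΔRBR libraries (at least 11.1-fold lower by pooled counts, edgeR adjusted p = 0.0144). Tbx1, a gene of the pharyngeal arches, was counted 127 and 83 times in the WT libraries and 136 and 289 times in those of ATRXΔRBR. It had 0 and 1 counts in the libraries labelled ATRX KD, where it was called lower (edgeR adjusted p = 0.00029), as was Tbx20. These 2 were 50% of the 4 genes tested, against 33.0% of all genes. The list's median log2 fold change against WT was 0.46 in ATRXΔRBR and -2.74 in ATRX KD, beside -0.02 for all genes in both.

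Of 32 limb bud patterning genes, 21 were tested in ATRXΔRBR, with 2 called higher and 3 lower (23.8%, against 6.85% of all genes tested) and a median log2 fold change of 0.30, beside -0.02 over all genes. Wnt5a, a signal for limb outgrowth, fell from 13.3 ± 0.81 to 2.57 ± 0.91 TPM (SD, n = 2), a log2 fold change of -2.60 (SE 0.23, edgeR adjusted p = 0.000747). Shox2, which patterns the upper arm, rose from 8.05 ± 0.028 to 19.7 ± 1.32 TPM (log2 fold change 1.23, SE 0.19, edgeR adjusted p = 0.00788). Lhx2 and Fgfr2 were also called lower and Etv4 higher. In ATRX KD 5 were called higher and 7 lower of 22 (54.5%, against 33.0% of all genes), with a median of 0.0038. Fgfr2, the receptor for limb Fgf signals, fell from 10.1 ± 1.72 to 0.195 ± 0.106 TPM, and Fgf10, which Tbx4 and Tbx5 induce in the limb bud, rose from 28.9 ± 3.67 to 56.6 ± 3.21 TPM (log2 fold change 0.72, SE 0.13, edgeR adjusted p = 0.00592) while Tbx4 and Tbx5 stayed at 0 counts. Wnt5a and Shox2 were called in both comparisons with opposite signs, and these comparisons share their WT libraries.

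Of 12 body wall and shoulder girdle genes 3 were tested, and 2 were called lower in each comparison with WT, where 6.85% of all genes were called in ATRXΔRBR and 33.0% in ATRX KD. In ATRXΔRBR these included Emx2, which acts with Tbx15 in the shoulder blade (log2 fold change -0.76, SE 0.18, edgeR adjusted p = 0.0471). In ATRX KD they were Emx2 and En1. The medians were -0.76 and -0.68. Of 15 reported T-box target genes, 8 were tested in ATRXΔRBR and 2 called (25%, against 6.85% of all genes). Cdkn1a, a cell cycle inhibitor that Tbx2 and Tbx3 repress, rose from 139 ± 17.4 to 291 ± 31.8 TPM (log2 fold change 0.99, SE 0.21, edgeR adjusted p = 0.0312) and Ndrg1 from 131 ± 0.127 to 257 ± 0.721 TPM. The median of the list was 0.30. In ATRX KD 2 were called higher and 5 lower of 9 (77.8%, against 33.0% of all genes), with a median of -0.73. Cdkn1a and Ndrg1 fell there, as did Cdkn2b, Cdkn2a and Cdh1, and Fgf10 and the gap junction gene Gja1 rose. Of 12 genes that act with T-box factors in mesenchyme, 7 were tested against WT in each comparison, and 1 was called higher and 2 lower in each (42.9%, against 6.85% and 33.0% of all genes), with medians of 0.11 and -0.20. Eya1 rose in ATRXΔRBR (log2 fold change 1.42, SE 0.19, edgeR adjusted p = 0.0044). Gata6 was called lower in both, with 27 and 18 counts in the WT libraries, 3 and 5 in those of ATRXΔRBR and none in ATRX KD, as was Mef2c. The list medians were the same when genes with a group at 0 were set to their bound.

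The sums of several marker lists moved with the genotypes. The summed TPM of 5 mesothelial and epicardial markers, tissues that also express Tbx18, was 22.1 to 27.7 in WT, 39.7 to 41.2 in ATRXΔRBR and 1.83 to 2.32 in ATRX KD, and 1 of the 5 reached 1 TPM on average. Wt1, on this list, had at most 1 estimated count in any library. The mean Tbx18 level had the same order of genotypes, and the part of such cells was not tested. In bulk RNA, fewer cells of a type and less RNA per cell cannot be told apart. The 14 fibroblast markers summed to 11467 to 13782 TPM in WT, 21334 to 23399 TPM in ATRXΔRBR and 18809 to 19061 TPM in ATRX KD, higher in both than in WT. The 7 endothelial markers summed to 3.16 to 4.11 TPM in WT, 3.32 to 5.55 TPM in ATRXΔRBR and 0.40 to 0.76 TPM in ATRX KD. The 7 immune markers summed to 7.56 to 11.4 TPM in WT, 11.8 to 12.3 TPM in ATRXΔRBR and 12.7 to 14.6 TPM in ATRX KD. The sums of these lists were thus lower or higher than in WT without overlap, other than the endothelial sum in ATRXΔRBR. The 8 muscle markers summed to 1.26 to 2.34 TPM in WT, 4.25 to 5.02 TPM in ATRXΔRBR and 2.30 to 4.35 TPM in ATRX KD, and the 6 neural markers to 2.77 to 3.8, 4.45 to 4.85 and 3.42 to 4.01 TPM. On average 1 of the 7 endothelial, 2 of the 7 immune, 1 of the 8 muscle and 1 of the 6 neural markers reached 1 TPM. These sums may therefore rest on few genes and do not show that a whole list moved. The part of any of these lists in the results was not tested. The 8 epithelial markers summed to at most 1.24 TPM and the 4 pluripotency markers to at most 0.35 TPM in any library.

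By Pearson's r of log2 CPM over the 6 libraries, the protein-coding genes most like Tbx15 were B4galt4, Perp and Sgk1 (r of 0.997, 0.997 and 0.996), and those most like Tbx18 were Utp14b, Mblac2 and Plagl2 (0.995, 0.992 and 0.988). Those most like Tbx3 were Sdccag8, Osbp and Mrtfa (0.979, 0.978 and 0.977). Over 9968 candidates for Tbx15 and Tbx18, 114 and 111 had an r over 0.95, and 15 of 9969 for Tbx3. The 6 points are 3 genotypes of 2 libraries each, so they are not independent.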

How the data were processed

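RNA-Seq of WT, ATRXΔRBR and ATRX KD MEFs and CUT&RUN peak lists were used, 22 samples in all with 2 replicates a group, grouped by their GEO labels. A further 4 IgG samples were not analysed here. For RNA-Seq the deposited files hold the authors' estimated counts and TPM per gene, as RSEM writes them. For CUT&RUN the authors deposited MACS2 peaks called per library, with a fold enrichment ratio and a −log10 q-value for each. The submitters' processing notes name STAR, Bowtie2, MACS2 and mm10. The deposited file list was used only for the names of the raw files.

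Estimated counts were rounded and tested with edgeR 4.0.16 in R 4.3.3 (TMM, quasi-likelihood test, Benjamini-Hochberg adjustment over all genes tested), on the 4 libraries of each comparison and genes with more than 10 counts in total. A call is an adjusted p under 0.05. TPM set levels between genes. DESeq2 1.42.0 was an alternative. Depth ranged from 9051693 to 21723647 estimated counts, and a count of 0 was taken to allow 3 counts. The code was tested on simulated data.

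A peak counted at a TSS where at least 1 bp lay within 2 kb of the outermost start in GENCODE M21. Covered bases were those of the gene and 2 kb upstream inside peaks. Sequences were read from GRCm38 with pysam 0.24.0.

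The members and gene lists were chosen with earlier results of these data known. Named were all 6 members, overlapping neighbours, at most 8 genes a list called against WT, by smallest adjusted p, and the 3 protein-coding genes most alike in log2 CPM (prior count 2, mean of at least 5 TPM) to each member with at least 1 TPM. The crossed replicate numbers, 20 kb flanks and q-value limit on covered bases were chosen after seeing the data. Some genes of the lists are counted but not reported here by name.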

Additional observations from a re-analysis of the deposited data

Results flagged for a closer look

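All 3 tested members differed between the libraries labelled ATRX KD and ATRXΔRBR, which is the test of whether their changes from WT differ. The log2 fold change was -1.09 for Tbx3, 0.45 for Tbx15 and -0.55 for Tbx18 (edgeR adjusted p = 0.00630, 0.0188 and 0.0145). In the same fit 34.7% of all genes were called. The genotype and the sequencing run cannot be told apart here, and neither Tbx15 nor Tbx18 was called once an ATRX KD library was left out.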

How the results depend on the processing

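For ATRXΔRBR against WT, where 0 members were called, DESeq2 called 1, the test without a filter 2, the fit of all 6 libraries 1, and leaving out 1 library 0 to 1. Over all genes these calls were 1979 of 26561 tested without a filter and 1812 of 16334 with all libraries, against 1119 of 16334. For ATRX KD against WT, leaving out 1 library gave 0 to 2 members (8947 genes without WT replicate 2, against 5538), and the log2 fold change of Tbx3 ranged from -0.41 to 0.11. On the scale of log2 mean TPM plus 1, Tbx3 was at 0.33 and Tbx15 at 0.0865. For ATRX KD against ATRXΔRBR, a log2 fold change of at least 1 left 1 member and 2612 of 5734 genes, and leaving out 1 library 1 to 3 members (3488 and 3089 genes without ATRX KD replicate 1 and 2). In fits without 1 library, the lone sample of a group is assumed to vary like the other group.

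With the replicate number as a block, 0, 0 and 3 members were called in the 3 comparisons, and no call of a member changed. Over all genes tested, 1071 of 16334, 5792 of 16785 and 6775 of 16520 were called with this block. Same-numbered libraries share only a number. Their deviations correlated at -0.75, -0.20 and 0.23 over 9280 genes, and with crossed numbers, chosen after seeing the data, the block gave 2 members and 5585 genes for ATRXΔRBR and 0 members and 6465 genes for ATRX KD.

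ATRX peaks at the TSS, 1 member a list on average in WT and ATRXΔRBR, became 2 in WT with the start of any transcript, and 0.5 in ATRXΔRBR with a 1 kb window or a q-value of at most 0.01. Leaving out 1 list gave 0 to 2 in each. H3K27me3 fell from 4 to 2.5 in WT when the midpoint of a peak had to lie in the window, and rose from 1 to 2 in ATRX KD with any start. With 20 kb flanks, covered lengths over the 6 genes were 33.8 kb for EZH2 in WT and 86.5, 54.1 and 4.82 kb for H3K27me3 in WT, ATRXΔRBR and ATRX KD. At a q-value of at most 0.01 they were 54.8, 32.4 and 2.52 kb for H3K27me3 and 0.4995 kb for ATRX in ATRXΔRBR. The cause was not tested. At these depths Tbx2, Tbx4 and Tbx5 RNA could not be compared between groups.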

Other observations

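Over the 6 genes and their 2 kb upstream regions, H3K27me3 peaks covered on average 56.0 kb in WT, 35.2 kb in ATRXΔRBR and 3.72 kb in ATRX KD. The difference between WT and ATRXΔRBR was mostly that of Tbx5, with means of 28.98 and 8.50 kb. Tbx2 went from 10.6 to 7.47 kb and Tbx3 from 1.57 to 0 kb, while Tbx4 went from 14.9 to 19.2 kb. Tbx4 was the gene whose covered length was higher in both ATRXΔRBR lists than in either WT list.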
